A study of Medicago truncatula with 9 samples.

Results

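RNA sequencing was used to compare mature seeds of hsfa9-2 (line NF13157), a Medicago truncatula line with a Tnt1 retrotransposon insertion, with seeds of the wild type R108, the background in which the labels place the line. There were 3 libraries a genotype, each made from 50 seeds of several plants. All plants grew at 20 °C/19 °C under a 16 h day, and their pods dried at 43% relative humidity before the seeds were stored at 20 °C. The labels state no heat treatment. A further line, hsfa9-1 (NF10440), supplied 3 more libraries that entered the model, and both lines were compared with the same R108 libraries. The sources used here give no insertion position, zygosity or number of backcrosses. Each genotype was a single line, so an effect of the named insertion and an effect of another difference between the lines cannot be told apart. Members were all loci with at least 1 FPKM (fragments per transcript length and sequencing depth) in at least 3 of the 9 libraries, which kept 17508 of the 36695 loci.

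Heat stress transcription factors bind heat shock elements in promoters and drive chaperone genes. HSFA9 is the seed member of the family. It was described in Arabidopsis, where the maturation regulator ABI3 activates it, and in sunflower, where it activates small heat shock protein genes in embryos without heat. Legume seeds acquire desiccation tolerance and longevity in the same phase, while they store globulins, oil bodies, late embryogenesis abundant (LEA) proteins and raffinose family sugars, and they keep a pool of transcripts through drying.

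No description in the files names HSFA9, so the level of the targeted gene was not measured and the labels were not checked against it. Library totals lay between 922800.58 and 981284.54 FPKM. The absolute depth is unknown. Seed transcripts (storage proteins, LEA proteins and oil body proteins) held 9.86% to 10.4% of all FPKM in R108 and 13.6% to 15.7% in hsfa9-2, so the defining transcripts of the labelled tissue were present. Green tissue markers (photosynthesis) held 0.600% to 0.645% in R108 and 0.401% to 0.449% in hsfa9-2. Nodule markers held 0.0788% to 0.1004% and 0.250% to 0.395%, and with 2 Nodule-specific Glycine Rich Peptide loci set aside (Medtr5g084320 and Medtr5g084270) their sum was 100.4 ± 0.56 FPKM in R108 and 104 ± 9.45 in hsfa9-2. On the first principal component, over all tested loci, R108 lay between −76.0 and −74.8 and hsfa9-2 at 32.4, 42.5 and 41.9 in replicates 1, 2 and 3.

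Replicate 1 of hsfa9-2 stood apart from replicates 2 and 3. A set of 19 loci was chosen without any hsfa9-2 value, from those at 20 FPKM or more in R108 and at or under 1 in 50 parts of that in hsfa9-1. Replicate 1 held a median of 5.06% of the R108 mean (2.11% to 7.74%). Replicates 2 and 3 held 0.596% and 0.673%. The hsfa9-1 libraries held 0.578% to 1.02%, but the choice of loci fixed their values as low, so only the hsfa9-2 libraries can be compared here. Of the 1483 loci that were lower in hsfa9-1 than in R108 by at least 1 on the log2 scale, replicate 1 was the hsfa9-2 library nearest to R108 at 60.2%. It was the nearest at 47.2% of the 1340 loci that were higher in hsfa9-1. The source of this difference was not tested. Many of the largest falls are given by library. Values without replicate 1 are given for some loci and lists where it moved a mean or a count by more than 1.5 times or changed a direction. The absence of such a value does not show that replicate 1 had no effect.

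**Figure D1:**
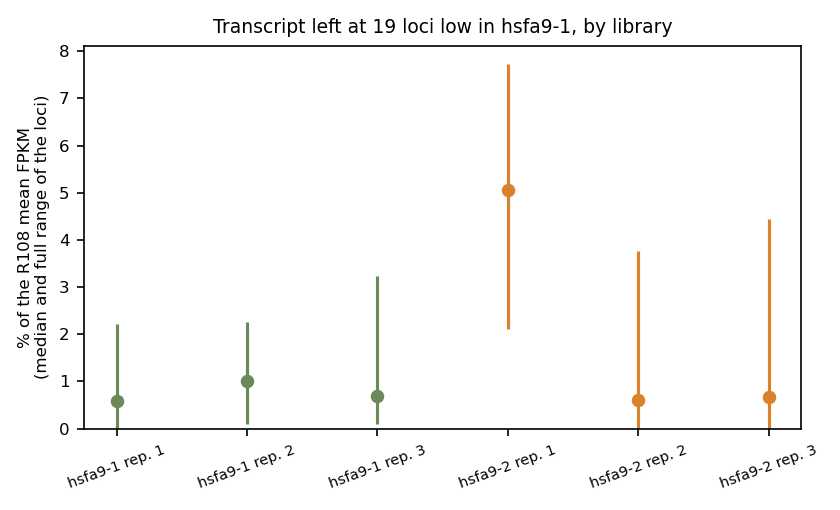
Share of the R108 mean FPKM (%, linear axis) left in each library of hsfa9-1 and hsfa9-2 at the 19 loci, with points for the median over loci and lines for the full range. Replicate 1 of hsfa9-2 has a median of 5.06%, and the other mutant libraries lie between 0.578% and 1.02%. The hsfa9-1 libraries are low through the choice of loci.

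Setting hsfa9-2 against R108 asks which transcripts of the dry seed differ in the insertion line. Transcript levels differed across most of the expressed genome. Of the 17508 loci, 10902 (62.3%) passed an adjusted p of 0.05 in limma, 4511 (25.8%) higher and 6391 (36.5%) lower in hsfa9-2. By at least 1 on the log2 scale, 1366 (7.8%) were higher and 1677 (9.58%) lower, and by at least 4, 33 were higher and 27 lower. The groups did not overlap at 11619 loci (66.4%), 27.8% higher and 38.6% lower. Log2 changes are given as mean log2(FPKM + 1) in hsfa9-2 minus that in R108, "rose" and "fell" are used of loci past the threshold, and values are mean FPKM ± SD of 3 libraries. The median change was 0.69 among loci that rose and −0.66 among those that fell, so most called changes were below 1 on this scale. The counts of each gene list below stand against the shares over all loci, 62.3% called, 25.8% higher and 36.5% lower.

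The balance of directions depended on the scale. The median change over all loci was −0.10, and after shifting every library to the same median it was 0.03, with 5634 loci higher and 5070 lower. List counts after median centring, given below, stand against these counts over all 17508 loci. Quantile normalization gave 5210 higher and 5512 lower. Loci that rose held 212678 FPKM in R108 and 432114 in hsfa9-2 (means of the summed values), and loci that fell held 487872 and 283534. FPKM is a share of a library, so a lower level cannot be told apart from a smaller share beside transcripts that increased, and fewer cells of a type cannot be told apart from less RNA per cell. Called loci were spread over the chromosomes named in the identifiers, with 59.5% to 64.8% called on each. Without replicate 1 of hsfa9-2, 10538 loci were called, 4279 higher and 6259 lower.

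**Figure D2:**
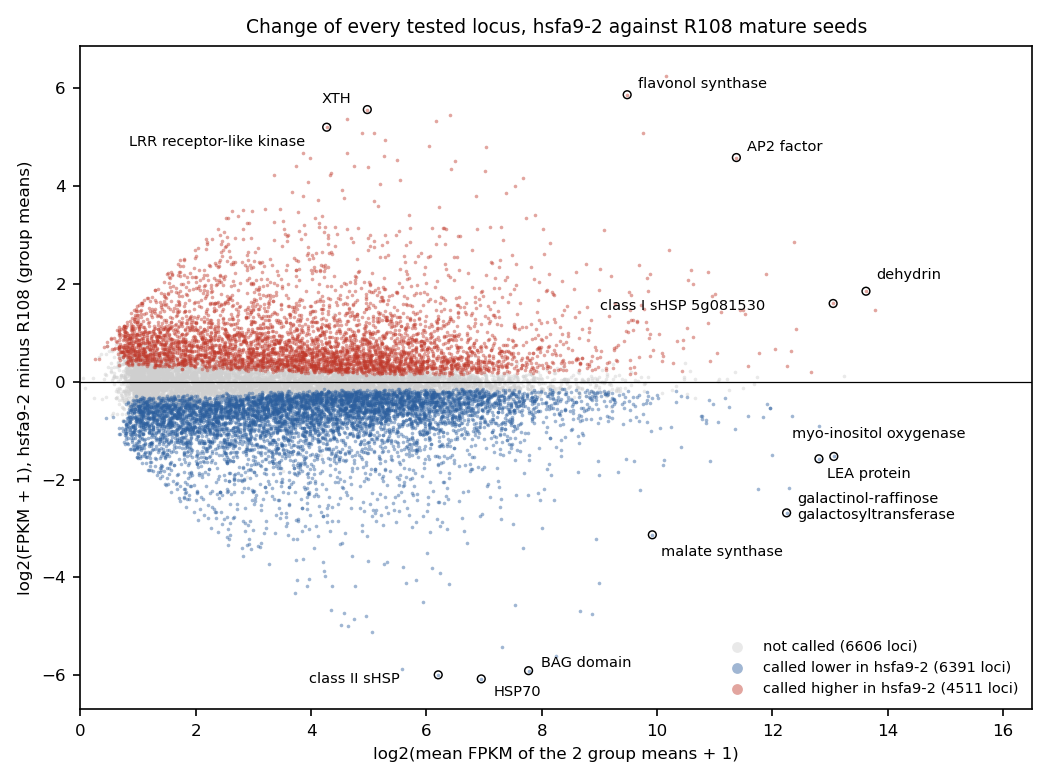
Difference of mean log2(FPKM + 1), hsfa9-2 minus R108 (vertical axis), against the log2 of the mean abundance plus 1 (horizontal axis), with a point for each tested locus and circles for named loci. The 4511 loci called higher and 6391 called lower span the whole range of abundance. The HSP70, BAG domain and class II small heat shock protein loci have the largest falls among the circled loci. The circled class I locus Medtr5g081530 lies among the rises.

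Of the 12 described loci with the largest falls, 5 were chaperones or co-chaperones. Medtr8g028265 encodes a BAG domain protein, a partner of HSP70, and had 417, 417 and 442 FPKM in R108 and 21.5, 2.7 and 3.28 in hsfa9-2. The HSP70 locus Medtr5g006180, of the ATP-driven chaperones, had 222, 265 and 237 FPKM in R108 and 9.19, 1.13 and 1.11 in hsfa9-2. The cytosolic class II small heat shock protein Medtr8g022720, of a family that holds unfolding proteins, had 118, 159.8 and 149 FPKM in R108 and 8.82, 0.13 and 0 in hsfa9-2. In each of these loci replicate 1 of hsfa9-2 was the highest mutant library, and no hsfa9-2 library reached an R108 library. The log2 changes were −5.91 (SE 0.545, adjusted p = 8.08e-06), −6.08 (SE 0.485, adjusted p = 1.89e-06) and −6.0 (SE 0.702, adjusted p = 4.26e-05), and without replicate 1 they were −6.74, −6.83 and −7.06.

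Loci of other functions were also among the 12. The light-harvesting complex I locus Medtr5g098780 had 528, 648 and 605 FPKM in R108 and 26.7, 7.97 and 6.25 in hsfa9-2. The bidirectional sugar transporter Medtr1g029380, a type that lets sugars through membranes along their gradient, had 262, 316 and 342 FPKM in R108 and 20.5, 3.37 and 2.77 in hsfa9-2. Equilibrative nucleoside transporter 6 (Medtr2g011600) had 66.2, 57.03 and 65.99 FPKM in R108 and 3.94, 0.15 and 0.10 in hsfa9-2. A uridine kinase/uracil phosphoribosyltransferase (Medtr4g103620), an enzyme type that returns uridine and uracil to the nucleotide pool, had 45.3, 48.5 and 47.7 FPKM in R108 and 1.78, 0.16 and 0.080 in hsfa9-2. A FAD/NAD(P)-binding oxidoreductase (Medtr1g090667) had 46.8, 53.6 and 51.1 FPKM in R108 and 2.39, 0.25 and 0.34 in hsfa9-2. Replicate 1 was the highest hsfa9-2 library at both. A glyoxalase I family protein (Medtr4g114080), of a family that detoxifies methylglyoxal, had 53.7, 52.4 and 69.1 FPKM in R108 and 4.08, 0.70 and 0.11 in hsfa9-2. The blue copper-like protein Medtr6g013420 had 38.5, 49.2 and 45.7 FPKM in R108 and 1.63, 0.22 and 0.53 in hsfa9-2. These 7 falls lay between −5.61 and −4.73 on the log2 scale (without replicate 1, −5.43 for the kinase, −5.31 for the oxidoreductase, −5.42 for the glyoxalase and −5.05 for the copper protein), and at each of them the 3 R108 libraries were above all hsfa9-2 libraries.

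The largest rises included a flavonoid enzyme, wall enzymes and a receptor kinase. The flavonol synthase/flavanone 3-hydroxylase Medtr4g093840, of the flavonoid pathway, had 24.9, 18.9 and 25.5 FPKM in R108 and 1273, 1400.1 and 1537 in hsfa9-2. The xyloglucan endotransglucosylase/hydrolase (XTH) Medtr4g128410, a wall-remodelling enzyme, had 0.14, 0.54 and 0.21 FPKM in R108 and 51.9, 71.5 and 58.2 in hsfa9-2. The LRR receptor-like kinase Medtr2g074980, a membrane receptor type, had 0, 0.020 and 0.020 FPKM in R108 and 34.1, 40.5 and 35.1 in hsfa9-2. All hsfa9-2 libraries lay above all R108 libraries, and the libraries of R108 were near 0 for the XTH and the kinase. The log2 changes were 5.87 (SE 0.114, adjusted p = 6.77e-10), 5.57 (SE 0.141, adjusted p = 1.5e-09) and 5.21 (SE 0.133, adjusted p = 1.5e-09).

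Further rises of this size followed. A GT8 glycosyltransferase (Medtr5g036580) rose from 2.79 ± 0.151 to 166 ± 24.6 FPKM, and the cellulose synthase E1-like locus Medtr3g060240 from 0.933 ± 0.16 to 64.97 ± 10.2 FPKM. An omega-hydroxypalmitate O-feruloyl transferase (Medtr8g096530), an enzyme type that adds ferulate to suberin monomers, rose from 2.46 ± 0.366 to 139 ± 6.05 FPKM. Carotenoid cleavage dioxygenase 4a-6 (Medtr5g025270), of a family that cuts carotenoids, rose from 0.683 ± 0.129 to 56.2 ± 5.62 FPKM. A male sterility MS5 family locus (Medtr7g059010) rose from 0.127 ± 0.0651 to 46.8 ± 10.95 FPKM, a UDP-glucosyltransferase (Medtr7g067120) from 1.46 ± 0.431 to 74.5 ± 12.4 FPKM and the EF hand locus Medtr8g107110, of a calcium-binding family, from 3.45 ± 0.801 to 127 ± 29.6 FPKM. A cysteine-rich TM module stress tolerance protein (Medtr3g103210) rose from 0.080 ± 0.139 to 26.8 ± 3.73 FPKM and a nucleobase-ascorbate transporter-like protein (Medtr5g032020) from 2.01 ± 0.111 to 73.1 ± 6.59 FPKM. These 9 log2 changes lay between 4.62 and 5.45. A lipid transfer protein (Medtr5g012380) was the only locus listed at 0 in all libraries of R108 and at 5 FPKM or more in all of hsfa9-2 (10.01, 12.4 and 8.85 FPKM), and no locus had the opposite pattern.

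**Figure D3:**
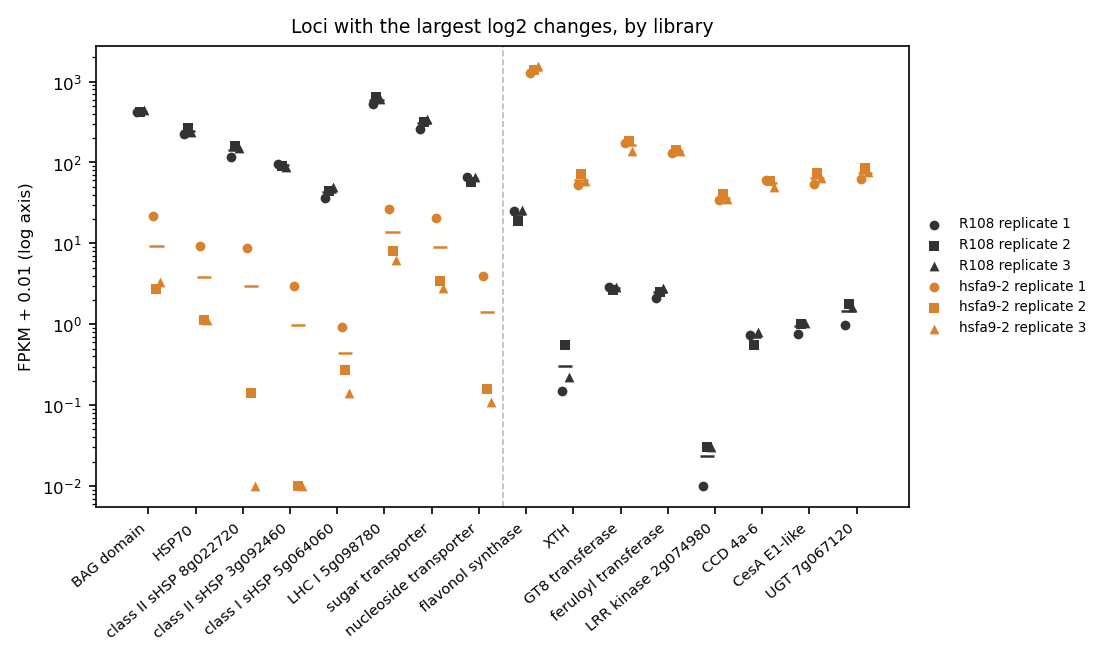
FPKM + 0.01 on a log axis in every R108 and hsfa9-2 library for 8 loci among the largest falls (left of the dashed line) and 8 among the largest rises (right), with bars for group means and marker shapes for replicates. The circles of hsfa9-2 replicate 1 lie above the other hsfa9-2 libraries at all 8 falls, as at the BAG domain locus with 21.5 FPKM against 2.7 and 3.28, and do not do so across the rises.

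Most cytosolic small heat shock proteins fell, and 2 class I loci rose. All 4 class II loci fell, and of the 11 class I loci 9 fell and 2 rose. The class II sum fell from 1215 ± 151 FPKM to 146 ± 21.5. The class II locus Medtr3g104780, the most abundant of them in R108, had 679, 895 and 761 FPKM in R108 and 44.8, 20.3 and 26.5 in hsfa9-2, a log2 change of −4.69. Medtr3g092460 had 96.1, 90.9 and 89.01 FPKM in R108 and 2.94, 0 and 0 in hsfa9-2. The remaining class II locus, Medtr1g015165, kept more than the others, with 175, 225 and 205 FPKM in R108 and 100.2, 101 and 133 in hsfa9-2 (log2 change −0.86).

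In class I, the abundant locus Medtr5g081530 went against the rest. It had 4183, 4158 and 4174 FPKM in R108 and 10354, 13100.4 and 14964 in hsfa9-2. Every hsfa9-2 library was above every R108 library, and replicate 1 was the lowest of the hsfa9-2 libraries. Its log2 change was 1.60 (SE 0.125, adjusted p = 1.64e-06). The 17.5 kDa locus Medtr4g064993 rose from 44.2 ± 4.6 to 77.3 ± 8.74 FPKM (log2 change 0.79). The other 9 class I loci fell by log2 changes from −4.98 (Medtr5g064060, 43.6 ± 6.6 to 0.437 ± 0.424 FPKM, and 0.195 FPKM without replicate 1) to −1.48 (Medtr4g088445). Examples are Medtr4g088490, which had 312, 408 and 368 FPKM in R108 and 73.02, 73.5 and 68.2 in hsfa9-2, and Medtr6g061850, which fell from 501 ± 110.1 to 91.99 ± 11.8 FPKM. The class I sum was higher in hsfa9-2 (13210 ± 2353 FPKM against 5846 ± 301 in R108), and without Medtr5g081530 it was lower (404 ± 34.5 against 1674 ± 314). Class I loci are similar in sequence, and how reads shared by near-identical copies were assigned is not given in the sources used here, so that the split among them is uncertain.

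Small heat shock proteins of other descriptions were mixed, with 5 of 19 tested loci higher, 8 lower and 6 not called. After median centring 6 were higher and 6 lower. The largest fall was that of the "localized" small heat shock protein Medtr3g052760, which had 23.9, 29.9 and 29.3 FPKM in R108 and 0.82, 0.24 and 0.72 in hsfa9-2. A peroxisomal small heat shock protein (Medtr5g078040) rose from 3.73 ± 0.968 to 16.7 ± 2.75 FPKM. The HSP20-like Medtr1g069065 rose from 90.3 ± 3.98 to 207 ± 10.01 FPKM.

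Larger chaperones also changed in both directions. Of 32 tested HSP70 proteins and exchange factors, 18 fell and 10 rose, with a median log2 change of −0.29 beside −0.10 over all loci. The HSP70 loci Medtr8g099795 and Medtr3g081170 fell from 65.6 ± 7.62 to 7.89 ± 1.75 FPKM and from 48.4 ± 2.65 to 11.8 ± 2.14 FPKM. The heat shock cognate Medtr7g024580 rose from 129 ± 3.63 to 233 ± 15.2 FPKM, and BAG family molecular chaperone regulator 5 (Medtr2g025690) had 13.3, 15.2 and 14.6 FPKM in R108 and 57.5, 97.04 and 74.2 in hsfa9-2. The latter was higher in every hsfa9-2 library than in any R108 library, the opposite of the BAG domain locus Medtr8g028265.

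Among 36 HSP90, HSP100 and chaperonin loci, 22 fell and 5 rose (18 and 8 after median centring), with a median of −0.38. The chaperonin Medtr2g013540 fell from 275 ± 14.8 to 104 ± 6.57 FPKM and the GroES chaperonin Medtr4g124910 from 188 ± 9.03 to 72.96 ± 5.76 FPKM. The ATP-dependent chaperone ClpB locus Medtr4g109450, which pulls proteins out of aggregates, rose from 319 ± 19.7 to 1138 ± 80.5 FPKM (log2 change 1.83). Of 93 DnaJ co-chaperones, 36 fell and 23 rose, a balance that turned to 31 and 33 after median centring. Their shares of 38.7% and 24.7% were near those over all loci. Medtr4g085070 fell from 374 ± 13.3 to 34.9 ± 7.33 FPKM, and Medtr4g007300 rose from 36.3 ± 4.8 to 173 ± 13.1 FPKM.

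Heat stress transcription factors changed in both directions. Of 18 tested loci, 6 rose, 8 fell and 4 were not called (8 and 8 called after median centring). The shares of 33.3% higher and 44.4% lower stand beside 25.8% and 36.5% over all loci. The median log2 change of 0.07 and the mean of −0.44 differed in sign. The largest falls were in 2 loci described without a class, Medtr5g089170 with 10.5, 13.6 and 11.5 FPKM in R108 and 0.75, 0.83 and 0.15 in hsfa9-2, and Medtr4g088900 with 5.17, 6.33 and 5.76 FPKM in R108 and 0.090, 0.090 and 0 in hsfa9-2. No hsfa9-2 library of these loci reached an R108 library, and the hsfa9-1 means were 0.197 ± 0.155 and 0.090 ± 0.090. The 3 tested B2A loci fell: Medtr1g100777, the most abundant factor, fell from 353 ± 12.6 to 138 ± 6.44 FPKM, Medtr0020s0020 from 204 ± 18.9 to 139 ± 8.95 FPKM and Medtr5g010680 from 68.6 ± 1.81 to 50.3 ± 5.47 FPKM.

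The 4 A3 loci with a called change did not share a direction. Medtr3g104550 fell from 75.4 ± 3.94 to 29.3 ± 3.94 FPKM and Medtr1g061170 from 36.5 ± 2.38 to 15.4 ± 2.99 FPKM, whereas Medtr4g077970 rose from 92.9 ± 5.09 to 151 ± 4.91 FPKM. Medtr5g029680 rose by 0.19, a call that was lost in 10 of the alternatives tried. Among A8 loci Medtr8g083100 rose from 21.5 ± 0.203 to 42.9 ± 2.14 FPKM and Medtr2g100670 by 0.32, and Medtr2g100680 was not called (log2 change 0.17). The call of Medtr2g100670 was lost without R108 replicate 3 and without hsfa9-2 replicate 2, and Medtr2g100680 was called higher in 4 alternatives, among them median centring (0.29) and the fit without hsfa9-2 replicate 3 (0.21). The A4A locus Medtr8g087540 was not called either (7.83 ± 0.179 to 8.43 ± 0.804 FPKM).

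LEA proteins held a larger share of the transcripts in hsfa9-2. Of 58 tested LEA proteins and dehydrins, which are made as seeds dry, 29 rose and 20 fell (25.8% and 36.5% of all loci), with a median of 0.27. The list's sum rose through 4 loci. The dehydrin Medtr6g084640 had 5588, 5039 and 5576 FPKM in R108 and 18318, 16322 and 24750.1 in hsfa9-2. The LEA group 3 locus Medtr4g011230 had 6987, 7774 and 7566 FPKM in R108 and 16867, 21779.5 and 23687 in hsfa9-2. The seed maturation protein Medtr7g093170 had 1079, 1488 and 1275 FPKM in R108 and 7127, 10243 and 10568 in hsfa9-2, and the LEA domain locus Medtr2g014040 had 1326, 1279 and 1346 FPKM in R108 and 5356, 5127 and 8233 in hsfa9-2. These 4 loci were higher in every hsfa9-2 library than in any of R108, with log2 changes of 1.85 (SE 0.136, adjusted p = 1.02e-06), 1.47 (SE 0.141, adjusted p = 7.84e-06), 2.85 (SE 0.18, adjusted p = 3.49e-07) and 2.21 (SE 0.177, adjusted p = 1.93e-06). The other LEA loci together held 49428 ± 3215 FPKM in R108 and 45708 ± 3762 in hsfa9-2.

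Other abundant LEA transcripts were lower. The LEA locus Medtr4g120040 had 10676, 10908 and 10497 FPKM in R108 and 3917, 4005 and 2941 in hsfa9-2. Medtr1g072090, a LEA D-like locus, had 7638, 8633 and 8313 FPKM in R108 and 1822, 2005 and 1615 in hsfa9-2, and the dehydrin Medtr3g117290 fell from 23.5 ± 2.71 to 9.41 ± 0.751 FPKM. Rises among less abundant members included the embryonic abundant-like locus Medtr2g081590 (523 ± 55.1 to 2536 ± 121 FPKM) and Medtr7g118270 (42.8 ± 5.12 to 236 ± 42.8 FPKM).

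**Figure D4:**
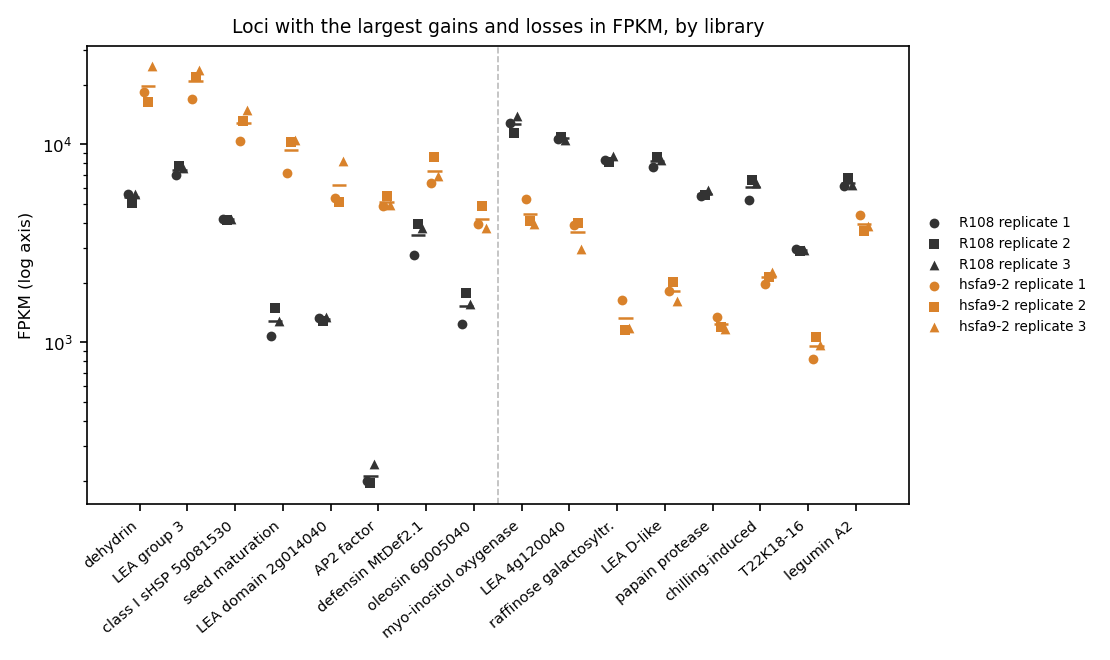
FPKM on a log axis in every R108 and hsfa9-2 library for the 8 described loci with the largest gain in mean FPKM (left of the dashed line) and the 8 with the largest loss (right), with bars for group means. The groups do not overlap at any of the 16 loci, and LEA proteins stand on both sides.

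Storage proteins, the nitrogen reserve of the seed, rose at 17 of 27 tested loci and fell at 7, with a median of 0.76. Against R108, 9 of the same loci rose and 9 fell in hsfa9-1. Their sums overlapped, at 20187 to 22415 FPKM in R108 and 21693 to 24242 in hsfa9-2. The vicilin 47 kDa loci Medtr7g079770 and Medtr7g079740 rose from 303 ± 21.5 to 923 ± 80.04 FPKM and from 30.2 ± 3.03 to 101 ± 24.5 FPKM, and glycinin G4 (Medtr7g096970) from 285 ± 7.67 to 612 ± 72.02 FPKM. The vicilin Medtr1g103400 fell from 1044 ± 144 to 598 ± 77.4 FPKM, and legumin A2 (Medtr7g097000) had 6124, 6781 and 6235 FPKM in R108 and 4399, 3631 and 3843 in hsfa9-2. Legumin A2 was lower in each hsfa9-2 library (log2 change −0.69). Of 8 oil body proteins, which coat seed oil droplets, 5 rose and 2 fell (4 and 1 without replicate 1, 5 and 1 after median centring). The oleosins Medtr6g005040 and Medtr3g109190 rose from 1521 ± 268 to 4201 ± 589.9 FPKM and from 1147 ± 85.4 to 2633 ± 336 FPKM, and the oleosin Medtr4g105200 fell from 158 ± 15.2 to 78.5 ± 5.25 FPKM. Defensin MtDef2.1 (Medtr2g079430) had 2759, 3951 and 3774 FPKM in R108 and 6388, 8631 and 6929 in hsfa9-2, while the neighbouring identifier, defensin MtDef1.1/MtDef1.2 (Medtr2g079440), among the most abundant loci of both genotypes, was not called (9362 ± 1691 to 10025 ± 636 FPKM, adjusted p = 0.457).

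Raffinose family genes, whose sugars accumulate in drying seeds, were split, with 5 of 10 higher and 5 lower. The most abundant, the galactinol-raffinose galactosyltransferase Medtr7g091880, had 8335, 8109 and 8698 FPKM in R108 and 1634, 1156 and 1176 in hsfa9-2. It was lower in each hsfa9-2 library, with a log2 change of −2.68 (SE 0.12, adjusted p = 3.86e-08). The raffinose synthase or seed inhibition protein Medtr3g075510 fell from 72.6 ± 3.04 to 4.93 ± 1.86 FPKM, whereas Medtr3g077280, a further galactinol-raffinose galactosyltransferase, rose from 215 ± 2.46 to 542 ± 18.9 FPKM. Galactinol synthase (Medtr7g111850), the entry enzyme of the pathway, rose from 7.36 ± 1.16 to 18.8 ± 2.37 FPKM. Myo-inositol oxygenase (Medtr8g015220), which breaks the ring of inositol and was the most abundant described locus of R108, had 12772, 11395 and 13902 FPKM in R108 and 5259.9, 4078 and 3937 in hsfa9-2. It fell by 1.53 on the log2 scale, and no hsfa9-2 library came near R108.

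The glyoxylate cycle lets seedlings turn oil into sugar. The glyoxysomal malate synthase Medtr8g028225 had 1649, 1884 and 1656 FPKM in R108 and 265, 169 and 169 in hsfa9-2, and isocitrate lyase (Medtr4g046757), the other enzyme of the glyoxylate cycle proper, fell from 21.1 ± 1.09 to 6.58 ± 0.997 FPKM. Over the 15 tested glyoxylate cycle and fatty acid breakdown loci, 6 fell and 3 rose (6 and 5 after median centring), beside 36.5% lower and 25.8% higher over all loci, so that the list was near the background. The peroxisomal 3-ketoacyl-CoA thiolase Medtr1g047210 rose from 240.2 ± 12.6 to 414 ± 33.4 FPKM. Among 56 starch, sucrose and trehalose loci, 26 fell and 17 rose (46.4% and 30.4%, beside 36.5% and 25.8% over all loci). After median centring 20 of them fell and 19 rose. An alpha amylase domain protein (Medtr1g019480) had 162, 154 and 157 FPKM in R108 and 12.7, 6.07 and 6.51 in hsfa9-2, a log2 change of −4.14. Sucrose synthase (Medtr2g044070) fell from 97.5 ± 5.92 to 12.6 ± 2.88 FPKM and soluble starch synthase III-1 (Medtr2g023320) from 33.2 ± 0.682 to 3.73 ± 0.943 FPKM. Trehalose-phosphate phosphatase (Medtr4g036090) rose from 5.34 ± 0.232 to 45.6 ± 7.15 FPKM.

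Of 34 sugar transporters 16 fell and 8 rose (14 and 12 after median centring), or 47.1% and 23.5% beside 36.5% and 25.8% over all loci, and the tonoplast monosaccharide transporter 2 locus Medtr3g116060 fell from 40.99 ± 2.7 to 8.9 ± 1.56 FPKM. The sucrose transporter Medtr6g043880 rose from 7.08 ± 0.86 to 59.1 ± 10.5 FPKM. Of 86 amino acid and peptide transporters 42 rose and 26 fell (48.8% and 30.2%), with a median of 0.40. The peptide transporter Medtr7g098220 had 0.98, 0.86 and 1.21 FPKM in R108 and 32.2, 43.8 and 35.5 in hsfa9-2, and the amino acid transporter Medtr3g110660 rose from 45.7 ± 3.59 to 263 ± 37.3 FPKM. Aquaporins, which pass water through membranes, fell at 9 of 17 loci and rose at 2 (6 and 3 after median centring). The aquaporin family locus Medtr3g070210 fell from 139 ± 15.95 to 8.75 ± 4.05 FPKM, while Medtr6g069040, the most abundant with a called rise, went from 1621 ± 75.3 to 4243 ± 384 FPKM.

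Abscisic acid (ABA) is the hormone of seed maturation and dormancy. All 4 tested loci of ABA synthesis and breakdown changed. The 2 ABA 8'-hydroxylases, which inactivate the hormone, fell: Medtr4g086040 had 20.1, 24.7 and 21.9 FPKM in R108 and 2.53, 2.32 and 1.99 in hsfa9-2, and Medtr1g037580 fell from 149 ± 8.67 to 56.1 ± 5.12 FPKM. The 9-cis-epoxycarotenoid dioxygenase Medtr2g070460, of the enzyme family that makes the ABA precursor xanthoxin, had 1.66, 1.23 and 2.03 FPKM in R108 and 13.1, 13.7 and 13.3 in hsfa9-2. It was higher in each hsfa9-2 library by a log2 change of 2.45 (SE 0.129, adjusted p = 9.94e-08). Zeaxanthin epoxidase (Medtr5g017350) fell from 4.1 ± 0.585 to 1.1 ± 0.148 FPKM.

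Of 27 tested loci of ABA response, 14 rose and 7 fell, with a median of 0.40. An abscisic acid receptor (Medtr5g083270) had 6.14, 6.22 and 6.19 FPKM in R108 and 56.4, 64.5 and 49.5 in hsfa9-2. The ninja-family protein AFP1 locus Medtr3g025970, of a family that in Arabidopsis promotes loss of ABI5, had 50.1, 64.3 and 58.6 FPKM in R108 and 4.57, 3.16 and 3.19 in hsfa9-2. The receptor was above R108 and AFP1 below R108 in all libraries, with log2 changes of 3.0 and −3.67. The further AFP1 locus Medtr8g012620 fell from 104 ± 21.7 to 49.6 ± 3.99 FPKM, and an ABA induced plasma membrane protein (Medtr1g094035) rose from 894 ± 131 to 3046 ± 559 FPKM. Protein phosphatases 2C, a family that includes the ABA co-receptors, were split, with 14 of 43 higher and 14 lower (17 and 9 after median centring).

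Gibberellin opposes ABA in germination. Of 25 tested loci 11 fell and 5 rose (10 and 8 after median centring). The shares of 44.0% and 20.0% stand beside 36.5% and 25.8% over all loci. The gibberellin 2-oxidase Medtr4g096840, of the enzymes that inactivate the hormone, had 2.59, 1.96 and 2.27 FPKM in R108 and 21.03, 26.4 and 24.4 in hsfa9-2, and the putative GID1 receptor Medtr6g464510 fell from 14.9 ± 1.07 to 4.81 ± 0.441 FPKM. The more abundant 2-oxidase Medtr2g070870 fell from 288 ± 22.5 to 165 ± 8.13 FPKM. Of 96 auxin loci 34 were higher and 29 lower, and the 65.6% called was near the 62.3% over all loci. The auxin-induced 5NG4-like locus Medtr2g102340 rose from 0.020 ± 0.0346 to 18.4 ± 4.62 FPKM.

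The AP2 domain factor Medtr1g023170, of a plant-specific transcription factor family, was the transcription factor with the largest gain in FPKM. It had 199, 193 and 243 FPKM in R108 and 4858, 5489 and 4934 in hsfa9-2, a log2 change of 4.59 (SE 0.0925, adjusted p = 6.86e-10). All 3 hsfa9-2 libraries lay at about the same level and far above R108. Over 85 ethylene and AP2/ERF loci 35 rose and 29 fell (41.2% and 34.1%, beside 25.8% and 36.5% over all loci). The ethylene response factor Medtr1g040430 rose from 0.983 ± 0.242 to 37.5 ± 6.73 FPKM, and Medtr1g087920, described likewise, fell from 216 ± 5.52 to 49.6 ± 3.43 FPKM.

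Other transcription factor families also held members with large changes. Of 27 NAC factors 12 fell and 8 rose (44.4% and 29.6%, beside 36.5% and 25.8% over all loci). Medtr2g079990 rose from 8.86 ± 1.22 to 78.2 ± 11.3 FPKM, and Medtr4g134460 fell from 30.9 ± 3.43 to 3.83 ± 0.965 FPKM. WRKY factors, often tied to stress, rose at 14 of 31 loci and fell at 5 (17 and 3 after median centring). Their shares of 45.2% and 16.1% stand beside 25.8% and 36.5% over all loci. Against this balance, the WRKY factor Medtr7g109800 fell from 14.1 ± 0.275 to 1.88 ± 0.47 FPKM. Homeobox factors rose at 25 of 61 loci and fell at 18 (41.0% and 29.5%). The ZF-HD locus Medtr5g065440 rose from 63.01 ± 3.7 to 239.8 ± 3.78 FPKM, and the knotted-like Medtr1g017080 fell from 15.3 ± 0.114 to 0.903 ± 0.226 FPKM. Among 64 bZIP and B3 factors, families that include ABI5 and ABI3 in Arabidopsis, 26 fell and 19 rose, which turned to 21 and 25 after median centring. The bZIP locus Medtr4g097440 fell from 9.47 ± 2.16 to 0.15 ± 0.173 FPKM (0.055 without replicate 1), and the B3 domain locus Medtr2g102450 rose from 8.84 ± 0.867 to 45.6 ± 5.33 FPKM. The myb locus Medtr5g016510 rose from 2.29 ± 0.47 to 30.8 ± 7.14 FPKM. Of 45 bHLH factors 18 rose and 11 fell.

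Loci of the wall were called in both directions, at 85.3% for wall loosening and 69.7% for cellulose and xylan synthesis beside 62.3% over all loci. Of 68 loci of wall loosening and pectin, 28 rose and 30 fell (28 and 27 after median centring). Expansin A1 (Medtr3g064510), of the proteins that loosen walls in growing cells, had 0.070, 0.33 and 0.40 FPKM in R108 and 26.8, 34.8 and 26.1 in hsfa9-2, and expansin A10 (Medtr3g435430) rose from 14.8 ± 1.96 to 139 ± 18.2 FPKM. Both expansins were higher in each hsfa9-2 library than in any of R108. The XTH locus Medtr7g093530 fell from 58.6 ± 8.19 to 10.3 ± 1.66 FPKM, the opposite of Medtr4g128410. In cellulose and xylan synthesis 13 of 33 rose and 10 fell (13 and 16 with no filter on low values). The E1-like loci Medtr3g060240 and Medtr3g060280 rose, the latter from 15.2 ± 2.11 to 48.03 ± 3.62 FPKM, whereas the cellulose synthase-like D3 locus Medtr4g088225 had 134, 123 and 122 FPKM in R108 and 12.8, 6.03 and 6.69 in hsfa9-2.

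The flavonoid list and the lignin and suberin list, which include seed coat markers, held a larger share of all FPKM in hsfa9-2. The flavonoid list held 0.158% to 0.178% of all FPKM in R108 and 0.331% to 0.343% in hsfa9-2, and lignin and suberin loci 0.0523% to 0.0546% and 0.0972% to 0.104%. Whether the proportion of seed coat differed was not tested. Of 62 flavonoid loci 21 rose and 25 fell (25 and 23 after median centring, 19 and 15 at a filter of 5 FPKM). The list's sum rose from 1588 ± 115 to 3251 ± 112 FPKM, with a median log2 change of −0.002. This net gain lay in the flavonol synthase Medtr4g093840 and the leucoanthocyanidin dioxygenase-like locus Medtr5g011250, and not across the list. Besides the flavonol synthase, a leucoanthocyanidin dioxygenase-like protein (Medtr5g011250) had 19.9, 20.3 and 21.5 FPKM in R108 and 318, 402 and 445 in hsfa9-2, and 2-hydroxyisoflavanone dehydratase (Medtr5g005920), of isoflavone synthesis, rose from 0.62 ± 0.0954 to 22.8 ± 2.26 FPKM. The flavone synthase P450 Medtr4g088170 fell from 135 ± 8.78 to 17.95 ± 4.56 FPKM, and the flavonoid 3-O-glucosyltransferase Medtr5g090580 from 88.9 ± 8.05 to 5.75 ± 2.5 FPKM.

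Lignin and suberin loci rose at 23 of 46 and fell at 12 (19 and 13 without replicate 1 of hsfa9-2), with a median of 0.39. Caffeoyl-CoA 3-O-methyltransferase (Medtr4g094815), of monolignol synthesis, had 15.1, 22.4 and 18.7 FPKM in R108 and 117, 153 and 144 in hsfa9-2, and Medtr5g031310, described as cinnamyl alcohol dehydrogenase-like, went from 7.8 ± 0.973 to 58.3 ± 2.56 FPKM. Cinnamoyl-CoA reductase Medtr6g406250 fell from 17.6 ± 0.672 to 1.23 ± 0.622 FPKM. UDP-glycosyltransferases and cytochrome P450 enzymes, which decorate such metabolites, were called in 75.0% and 74.6% of cases, 44 higher and 40 lower of 112 and 50 higher and 38 lower of 118. The UDP-glycosyltransferase balance turned with no filter on low values (49 and 50) and without replicate 1 of hsfa9-2 (40 and 43). The UDP-glucosyltransferase Medtr0536s0020 rose from 7.93 ± 0.708 to 94.2 ± 4.26 FPKM, and the P450 monooxygenase Medtr2g072260 from 8.72 ± 0.762 to 81.5 ± 10.6 FPKM.

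Photosynthesis transcripts, which green embryos make before they dry, were lower at 50 of 105 tested loci and higher at 23, with a median of −0.43. The oxygen-evolving enhancer protein 2-1 locus Medtr5g090410 had 178, 203 and 185 FPKM in R108 and 22.2, 15.6 and 17.8 in hsfa9-2. The light-harvesting loci Medtr5g098785 and Medtr5g098770, neighbours of Medtr5g098780 by identifier, fell from 12.1 ± 0.60 to 0.103 ± 0.105 FPKM and from 12.8 ± 3.45 to 0.377 ± 0.306 FPKM. The former had a mean of 0.050 FPKM without replicate 1. These copies may share reads. Photosystem I subunit III (Medtr2g029370) rose from 41.6 ± 1.66 to 103 ± 12.4 FPKM and a post-illumination chlorophyll fluorescence increase protein (Medtr4g010140) from 18.8 ± 1.23 to 58.9 ± 7.72 FPKM, so that the list did not move as a unit.

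Protein synthesis and turnover showed many small falls. Of 267 tested cytosolic ribosomal proteins 145 fell and 16 rose, with a median of −0.25. The shares of 54.3% and 5.99% stand beside 36.5% and 25.8% over all loci. After median centring 92 fell and 31 rose, beside 5070 and 5634 of all 17508 loci. The 60S ribosomal L35-like locus Medtr4g062410 fell from 250.1 ± 29.1 to 91.9 ± 8.67 FPKM, and the 60S ribosomal L12-like locus Medtr2g094300 rose from 3.27 ± 0.194 to 15.9 ± 2.97 FPKM. Translation factors fell at 54.6% of their loci and rose at 14.8% (59 and 16 loci, or 42 and 22 after median centring), among them the abundant initiation factor SUI1 (Medtr2g083180), which fell from 3478 ± 53.4 to 1771 ± 56.2 FPKM. Proteasome subunits, of the complex that degrades ubiquitin-tagged proteins, fell at 33 of 55 and rose at 3 (26 and 7 after median centring). The 26S regulatory subunit Medtr5g027960 fell from 497 ± 8.47 to 296 ± 7.45 FPKM. All 3 lists had more members called lower than higher under both scales, and their median changes were smaller than a 2-fold difference.

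Of 256 proteases and protease inhibitors 97 fell and 65 rose (73 and 86 after median centring), and their shares of 37.9% and 25.4% were near those over all loci. The papain family cysteine protease Medtr1g094135 had 5450.0, 5512 and 5861 FPKM in R108 and 1335, 1192 and 1169 in hsfa9-2, and an aspartyl protease (Medtr7g117430) fell from 118 ± 11.1 to 13.3 ± 3.33 FPKM. The isoaspartyl peptidase/L-asparaginase Medtr1g018760, an enzyme type that frees nitrogen from asparagine or damaged peptides, had 287, 350.4 and 309.6 FPKM in R108 and 1794, 2288 and 2085 in hsfa9-2. Both the papain fall (−2.19) and the asparaginase rise (2.70) separated all libraries. F-box proteins, which select targets for ubiquitination, were called at 60.9% of 317 loci, close to 62.3% over all loci.

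Histones rose at 22 of 54 tested loci and fell at 4 (40.7% and 7.41%, beside 25.8% and 36.5% over all loci), with a median of 0.21. Linker histone H1 (Medtr1g080700) rose from 24.6 ± 1.97 to 63.3 ± 10.4 FPKM. Pentatricopeptide repeat proteins, which process RNA in chloroplasts and mitochondria, rose at 128 of 443 and fell at 58 (168 and 35 after median centring), or 28.9% and 13.1%. Of them 42.0% were called, beside 62.3% of all loci, and their median was 0.10. An example is Medtr4g011570, which rose from 13.5 ± 0.37 to 46.2 ± 2.01 FPKM. Of 64 DNA repair loci 19 rose and 18 fell (24 and 14 after median centring, 20 and 20 without replicate 1 of hsfa9-2). DNA ligase (Medtr2g038030) fell from 23.3 ± 0.566 to 5.65 ± 0.259 FPKM, and a HhH-GPD base excision repair protein (Medtr7g103680) rose from 16.6 ± 1.3 to 54.3 ± 6.86 FPKM. MCM4 (Medtr4g096700), which licenses DNA replication, rose from 1.07 ± 0.209 to 7.17 ± 0.426 FPKM, while the cell cycle list was split, 30 higher and 32 lower of 99, and turned to 38 and 23 after median centring and to 29 and 26 without R108 replicate 1.

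Stress defence genes showed large opposite changes within families. Of 166 antioxidant and glutathione loci 66 fell and 52 rose, a balance that turned to 57 and 66 after median centring. The glutathione S-transferase Medtr2g070150 had 763, 969.7 and 939 FPKM in R108 and 110.4, 88.3 and 85.03 in hsfa9-2, and Medtr2g070130 fell from 457 ± 51.5 to 56.9 ± 6.61 FPKM. The tau class glutathione S-transferase Medtr1g067180 rose from 73.04 ± 8.05 to 449.7 ± 45.1 FPKM. Copper-zinc superoxide dismutase (Medtr7g114240), which removes superoxide, fell from 172 ± 8.93 to 36.04 ± 6.49 FPKM. Lipid transfer proteins rose at 14 of 30 and fell at 10, with Medtr4g027840 rising from 264 ± 26.4 to 1380.2 ± 80.9 FPKM. NB-LRR immune receptors were 47 lower and 40 higher of 155, and 34 lower and 55 higher after median centring. LRR receptor-like kinases were 62 higher and 55 lower of 158, a balance that turned with no filter on low values (69 and 78), without R108 replicate 2 (51 and 55) and without R108 replicate 3 (49 and 52), and was even without hsfa9-2 replicate 1 (55 and 55).

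**Figure D5:**
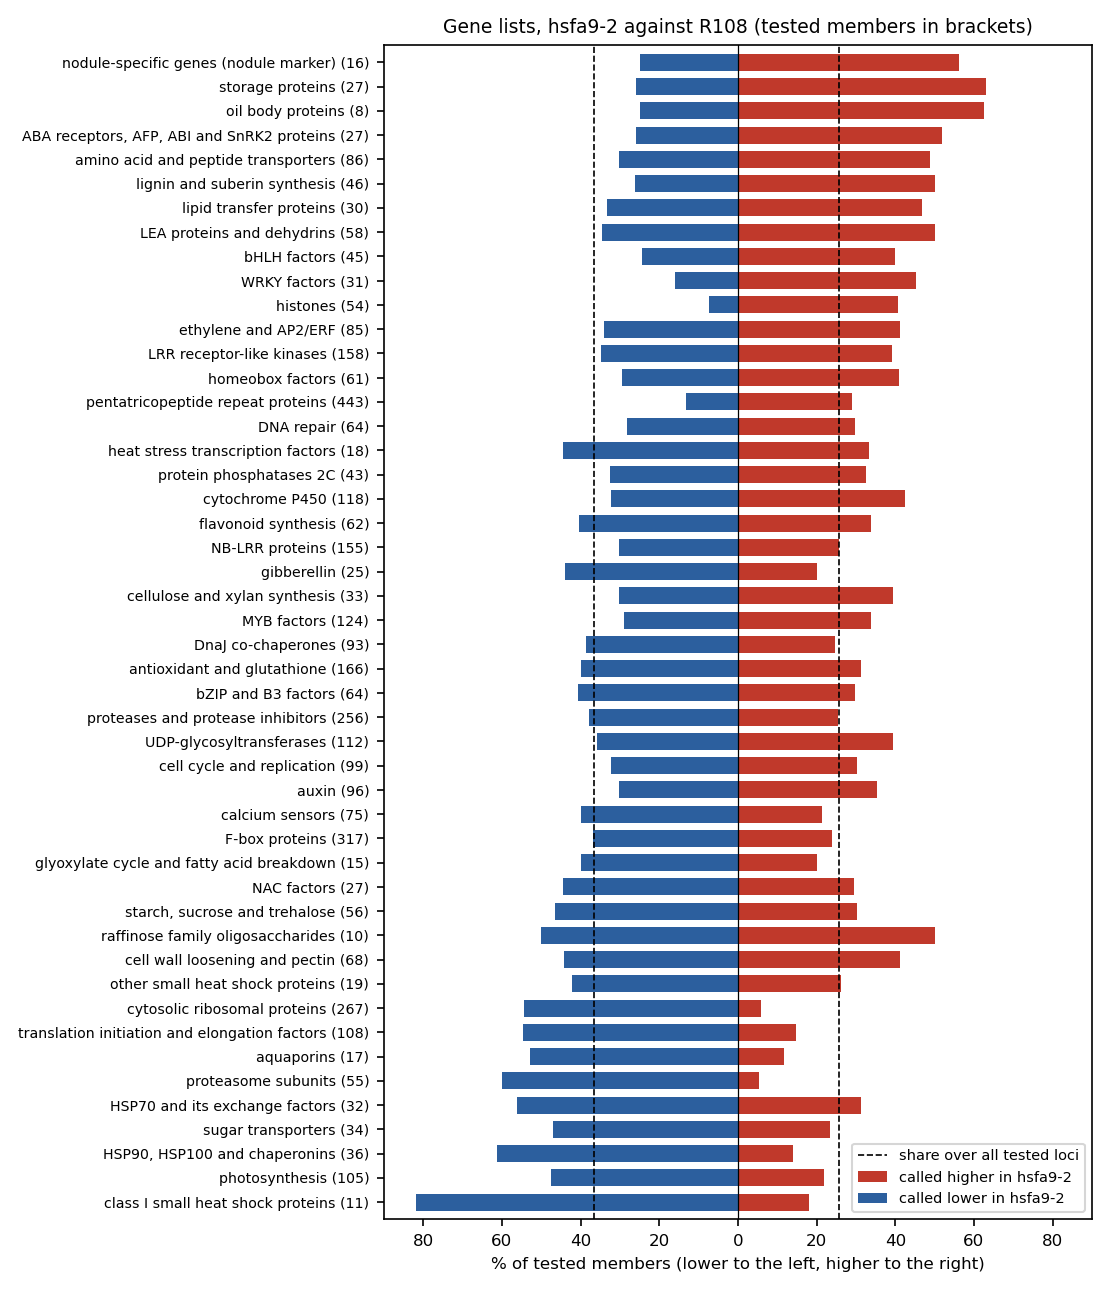
Share of the tested members of each gene list (%, lists with at least 8 tested members, number in brackets) called lower (left) or higher (right) in hsfa9-2 than in R108, ordered by median log2 change. Dashed lines are the shares over all tested loci, 36.5% lower and 25.8% higher, with class I small heat shock proteins (81.8% lower) at the bottom and storage proteins (63.0% higher) near the top.

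The comparison of hsfa9-2 with hsfa9-1 tests directly where the 2 insertion lines differ, with R108 entering through the shared estimate of the spread and the choice of loci tested. Few loci passed: 196 of 17508 (1.12%), 86 higher (0.491%) and 110 lower (0.628%) in hsfa9-2, of which 61 differed by at least 1 on the log2 scale, and 2592 had an unadjusted p under 0.05. A locus that did not pass is not shown to be equal in the lines. Without replicate 1 of hsfa9-2 the counts were 132 higher and 192 lower.

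Among the loci that differed, several were also among the largest changes from R108. The kinase Medtr2g074980 had a mean of 10.5 ± 2.22 FPKM in hsfa9-1 and 36.5 ± 3.43 in hsfa9-2 (log2 difference 1.72, adjusted p = 0.000322), with R108 at 0.0133 ± 0.0115. The AP2 factor Medtr1g023170 had 3382 ± 63.8 in hsfa9-1 and 5094 ± 345 in hsfa9-2 (log2 difference 0.59, adjusted p = 0.0151). The class I locus Medtr5g081530 had 7745 ± 718 and 12806 ± 2319 (0.71, adjusted p = 0.028), and among the class I loci that fell Medtr4g088490 kept more in hsfa9-2 (71.6 ± 2.9 against 40.7 ± 3.92 FPKM, 0.80). In these loci hsfa9-2 was the higher line.

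Storage proteins were higher in hsfa9-2 than in hsfa9-1 at 6 of 27 loci and lower at 0, beside 0.491% higher over all loci. The vicilin Medtr1g103400 had 1044 ± 144 FPKM in R108, and 309.8 ± 44.7 and 598 ± 77.4 in hsfa9-1 and hsfa9-2 (log2 difference between the lines 0.95, adjusted p = 0.00848). The embryonic abundant-like locus Medtr2g081590 was at 1463 ± 93.6 in hsfa9-1 and 2536 ± 121 in hsfa9-2 (0.79, adjusted p = 0.00245). A mechanosensitive ion channel-like locus (Medtr3g100320) was at 5.84 ± 0.070 in R108, 8.95 ± 1.82 in hsfa9-1 and 29.6 ± 6.64 in hsfa9-2 (1.61). A Bowman-Birk trypsin inhibitor (Medtr7g077215) was at 19.8 ± 2.08, 13.03 ± 3.65 and 38.95 ± 6.86 in the same order (1.53). A prephenate dehydrogenase (Medtr5g083530), of tyrosine synthesis, was at 0.943 ± 0.332, 0.187 ± 0.107 and 2.82 ± 0.577 (1.68). Both the inhibitor and the dehydrogenase had means below R108 in hsfa9-1 and above it in hsfa9-2.

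Loci lower in hsfa9-2 than in hsfa9-1 had other descriptions. A P-loop nucleoside triphosphate hydrolase locus (Medtr8g066210) was at 0.040 ± 0.0346 FPKM in the wild type, 18.3 ± 0.913 in hsfa9-1 and 2.83 ± 0.106 in hsfa9-2 (−2.33, adjusted p = 4.54e-06). A myb factor (Medtr4g478180) was listed at 0 in all R108 libraries, at 4.01 ± 0.131 in hsfa9-1 and at 0.39 ± 0.0693 in hsfa9-2, and a C2H2-type zinc finger locus (Medtr1g077120) at 4.65 ± 2.03 in hsfa9-1 and at 0 in all hsfa9-2 libraries. The ovate transcriptional repressor Medtr7g095150 was lowest in hsfa9-2, with 30.8 ± 3.63, 14.6 ± 3.17 and 3.92 ± 1.73 in the 3 genotypes (−1.70).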

How the data were processed

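Per the labels' protocols, enriched mRNA of mature seeds was read as 50 bp sequences on a BGISEQ-500, about 24 M for each library. The authors deposited FPKM values with 2 decimals for 42631 transcript models. Aligners and counters appear in the submitters' processing notes without versions (Bowtie2, HISAT, HISAT2, RSEM). Neither genome build nor annotation is given there. Descriptions are those the authors paired with the identifiers. FPKM holds no read counts, so depth is unknown and no count test was run.

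Models of a locus were summed (36695 loci), and 17508 loci reached 1 FPKM in 3 or more of the 9 libraries. limma 3.58.1 under R 4.3.3, with statmod 1.5.0, fitted log2(FPKM + 1) over all 9 libraries, using its trended and robust empirical Bayes moderation. The script was tested on simulated data in which far fewer loci changed, so that test does not cover the widespread differences seen here. Adjusted p-values are Benjamini-Hochberg values over all tested loci of a comparison. Replicates were separate seed lots of different plants, per the labels.

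The 51 gene lists were built from words in the descriptions and were not tested as sets. Members, lists and the naming rule were chosen with earlier results of these data known. Named loci were drawn from the groups that follow, and not every locus of each group is named. In each direction these were the 12 described loci with the largest change and the 8 with the largest difference in FPKM. The 6 largest differences between the lines in each direction and the 6 most abundant loci of each genotype were added. So were up to 4 members per list and direction with the lowest p, and loci at 0 in a whole group. Heat stress transcription factors and small heat shock proteins were a further group, given by count and in part by name. The alternatives changed the pseudocount, filter, scaling, model, transcript model and libraries. Promoter motifs were planned but not analysed, since no sequence was used here.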

Additional observations from a re-analysis of the deposited data

Results flagged for a closer look

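The change from R108 differed between the insertion lines at 196 loci by the limma contrast of hsfa9-2 with hsfa9-1. Of the loci named for the size of their change from R108, 4 are among them. The log2 difference, hsfa9-2 minus hsfa9-1, was 1.72 for the LRR receptor-like kinase Medtr2g074980, 0.71 for the class I small heat shock protein Medtr5g081530, 0.66 for the nucleobase-ascorbate transporter-like protein Medtr5g032020 and 0.59 for the AP2 domain factor Medtr1g023170. All 4 rose in hsfa9-2, with the larger mean in hsfa9-2 than in hsfa9-1. The adjusted p-values in limma were 0.000322, 0.028, 0.0151 and 0.0151.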

How the results depend on the processing

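The direction and the side of the threshold of most named loci did not depend on the processing: none reversed in any alternative. The count of loci that differed between hsfa9-2 and R108 stayed within 1.5 times of 10902 in all alternatives, and without a replicate of any genotype it was 9915 to 10765. Counts of changes of at least 1 on the log2 scale depended on the pseudocount: with a pseudocount of 5 they were 751 higher and 809 lower, in place of 1366 and 1677. Leaving out replicates gave 1332 to 1421 higher and 1645 to 1780 lower by this amount.

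The comparison of the insertion lines was less stable. Loci higher in hsfa9-2 than in hsfa9-1 were 86 in the fit of all libraries, 53 with the 6 libraries compared alone, and 48 to 132 without a replicate. Loci lower in hsfa9-2 were 110, 62 with no filter on low values, 51 with the 6 libraries alone, 60 with the most abundant transcript model of each locus, and 45 to 192 without a replicate, the highest without hsfa9-2 replicate 1 and the lowest without hsfa9-1 replicate 2. The cause was not tested. Replicate numbers did not pair the libraries, since same-numbered libraries had correlations of −0.125 to 0.096 of their deviations. With the number as a replicate block 10716 loci differed from R108 and 70 were lower in hsfa9-2 than in hsfa9-1.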

Other observations

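Calcium sensors fell at 30 of 75 tested loci and rose at 16, and were 22 and 22 after median centring. Their called share of 61.3% was near the 62.3% over all loci. The EF hand protein Medtr2g078240 fell from 61.9 ± 2.31 to 19.9 ± 1.07 FPKM, and Medtr4g115170, described likewise, rose from 45.98 ± 4.37 to 213 ± 25.6 FPKM. MYB factors rose at 42 of 124 loci and fell at 36, a balance that turned with no filter on low values (45 and 46) and without hsfa9-2 replicate 3 (39 and 40). The called share of MYB factors, 62.9%, was near that over all loci. The myb locus Medtr4g094982 rose from 179.8 ± 9.46 to 472 ± 74.5 FPKM, and Medtr8g028655 fell from 239 ± 9.26 to 127 ± 10.03 FPKM. Of the 16 tested nodule-specific loci 9 rose and 4 fell, led by the Nodule-specific Glycine Rich Peptide loci Medtr5g084320 (618, 542 and 709.5 FPKM in R108 and 1843, 3194 and 2573 in hsfa9-2) and Medtr5g084270, which rose from 126 ± 28.6 to 522 ± 90.3 FPKM. Of the 4 tested retroelement loci 2 rose, with Medtr3g022740 rising from 1.14 ± 0.246 to 4.44 ± 0.806 FPKM. The retroelement locus Medtr0058s0020 had a log2 change of −0.64, past the threshold, and was not called in 14 of the alternatives.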
